A study of Homo sapiens with 6 samples.

Results

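The genes described are the 3 MYC transcription factors (MYC, MYCN and MYCL), their dimer partner MAX, the antagonist MXI1, and 4 further genes tied to neuroblastoma (LMO1, LIN28B, DLK1 and SOX11). They were chosen by symbol, with earlier results of these data known, and all 9 were found among the 26372 genes of the deposited table. The table holds messenger RNA levels of SH-SY5Y cells, a human neuroblastoma line, as FPKM (fragments scaled to transcript length and to the mapped fragments of the library). There were 3 libraries of cells with a stable short hairpin RNA (shRNA) against TDP-43, labelled shT2 and called the knockdown here, and 3 of cells with a control shRNA, labelled shNC3. Hairpins came from lentivirus, driven by a U6 promoter, and stable TDP-43 knockdown cells were selected with puromycin. The labels do not say whether a group is 1 clone, or whether its libraries are separate cultures. The p-values then measure no more than how far these libraries vary, and that variation may be technical.

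MYC, MYCN and MYCL are basic helix-loop-helix leucine zipper proteins that bind DNA as dimers with MAX and activate genes of growth and ribosome assembly. MXI1 and the related MXD proteins, together with MNT and MGA, also dimerise with MAX and mostly act as repressors at the same sites. MYCN is the classic amplified oncogene of neuroblastoma, whereas SH-SY5Y carries no MYCN amplification. LMO1 is a transcriptional cofactor and a neuroblastoma susceptibility gene, LIN28B blocks maturation of the let-7 microRNAs, DLK1 is an imprinted transmembrane relative of the Notch ligands, and SOX11 is a transcription factor of immature sympathetic neurons.

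The sequences below show the DNA just upstream of a RefSeq start of the 3 members other than MYC that differed most in ratio. LIN28B is added because its window alone holds the E-box letters bound by MYC-MAX dimers. The RefSeq starts differ from the ends of the GENCODE gene spans given further below. The windows of MYCL and LIN28B lie inside those spans. The RefSeq (GRCh38.p14) promoter table used here was matched for 6 of the 9 members. Each run holds the 250 bases before the start, read 5′ to 3′ on the gene's strand, and capitals mark CACGTG, which reads the same on either strand. The intervals are chr2:15940300-15940549, plus strand for MYCN, chr1:39901918-39902167, minus strand for MYCL, chr11:8268788-8269037, minus strand for LMO1 and chr6:104956857-104957106, plus strand for one of the 2 listed starts of LIN28B.
MYCN: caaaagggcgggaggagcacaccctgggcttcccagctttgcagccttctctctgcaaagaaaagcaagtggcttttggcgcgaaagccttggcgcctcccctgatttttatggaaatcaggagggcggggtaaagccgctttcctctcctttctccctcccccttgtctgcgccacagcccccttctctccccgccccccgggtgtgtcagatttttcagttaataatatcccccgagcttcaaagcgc
MYCL: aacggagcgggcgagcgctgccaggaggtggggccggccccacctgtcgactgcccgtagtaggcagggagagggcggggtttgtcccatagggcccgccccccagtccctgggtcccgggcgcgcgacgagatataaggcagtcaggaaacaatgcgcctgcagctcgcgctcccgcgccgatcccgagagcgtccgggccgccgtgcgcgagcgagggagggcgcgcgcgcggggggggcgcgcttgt
LMO1: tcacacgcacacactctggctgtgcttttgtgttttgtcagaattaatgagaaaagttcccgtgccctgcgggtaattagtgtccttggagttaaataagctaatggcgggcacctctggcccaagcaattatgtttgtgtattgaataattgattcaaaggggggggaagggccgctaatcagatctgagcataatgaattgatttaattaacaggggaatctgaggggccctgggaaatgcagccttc
LIN28B: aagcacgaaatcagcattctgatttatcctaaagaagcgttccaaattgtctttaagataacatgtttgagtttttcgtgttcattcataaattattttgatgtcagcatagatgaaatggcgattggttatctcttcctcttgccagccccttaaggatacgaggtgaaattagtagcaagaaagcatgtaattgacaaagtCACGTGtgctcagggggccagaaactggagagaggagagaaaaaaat
CACGTG was found in 1 of 10 member windows, that of LIN28B, with its first base 47 bases before the start. It was found in 2228 of 35116 RefSeq windows of the same length (6.34%). GC content was 57.2% for the MYCN window, 74.4% for MYCL and 45.6% for LMO1, so these upstream stretches were not alike in composition.

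The targeted gene was checked first. TARDBP, which encodes TDP-43, stood at 21.2 ± 0.598 FPKM in the knockdown and 49.5 ± 1.49 FPKM in the control (SD, n = 3 each), and its log2 fold change was -1.19. Fold changes are on the log2(FPKM + 1) scale, on which changes of low genes look smaller than they are, and come from limma, adjusted by Benjamini-Hochberg over the 13434 genes that averaged at least 1 FPKM. The groups differed across most expressed genes: 8909 (66.3%) passed an adjusted p of 0.05, with 4092 (30.5%) higher and 4817 (35.9%) lower. With quantile normalization the split was 5365 higher and 3774 lower. When each library was rescaled to the same FPKM total (equal-sum scaling) it was 522 higher and 11689 lower, and the median of all genes moved by -0.80. Leaving 6 abundant small RNAs out of those totals moved it by -0.03. Depth in reads is unknown from FPKM, but the steps between low values put the knockdown libraries at 52.3% to 94.3% and the control libraries at 84.4% to 100% of the deepest library.

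The 2 groups also differed in markers of the mesenchymal and noradrenergic states of neuroblastoma cells. Of 12 mesenchymal markers 11 were lower in the knockdown and 0 higher, and their summed level was 350.4 to 353.5 FPKM in knockdown cells, against 2098 to 2143 FPKM in control cells. PRRX1, FOSL1, RUNX1 and NT5E averaged under 1 FPKM in the knockdown, so they entered the test through the control libraries. Of 11 tested noradrenergic markers 9 were higher and 1 lower (all tested genes, 30.5% and 35.9%), with sums over the list of 1106 to 1228 FPKM in the knockdown and 573 to 584 FPKM in the control. Under equal-sum scaling the noradrenergic list had 5 higher and 5 lower. DBH, the marker that was lower, stood at 31.3 ± 2.97 FPKM in the knockdown and 38.1 ± 0.942 FPKM in the control. TH, the enzyme that starts catecholamine synthesis and a defining marker of that state, was listed at 0 in all 6 libraries. A listed value of exactly 0 may be a failed estimate. Schwann and glial markers were low, with sums over 6 genes of 7.58 to 9.14 FPKM in the knockdown and 2.72 to 2.85 FPKM in the control. The part of these markers in the results that follow was not tested. In bulk RNA a smaller share of cells of one state and less RNA per cell cannot be told apart.

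Of the 9 members 8 were higher and 1, DLK1, lower in the knockdown, and the values of the 2 groups did not overlap for any of them. Across all tested genes 70.8% had groups that did not overlap (32.5% higher and 38.2% lower), and these shares stand beside 8 and 1 of the 9. MYC, MYCL and LMO1 were higher and DLK1 lower by at least 1 on the log2 scale, which 3.31% and 7.95% of tested genes were. MYCN and MYCL averaged under 1 FPKM in the control, so they entered the test through the knockdown libraries. The median log2 fold change of the 9 was 0.74, against -0.02 over all tested genes. Since the members were named with earlier results of these data known, they are not an independent draw from the tested genes. Under equal-sum scaling MAX, MXI1, LIN28B and SOX11 turned negative, while MYC, MYCN, MYCL and LMO1 stayed higher and DLK1 lower. With the 6 abundant small RNAs left out of those totals, 8 members were called higher and 1 lower, the same counts as on the deposited scale.

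**Figure D1:**
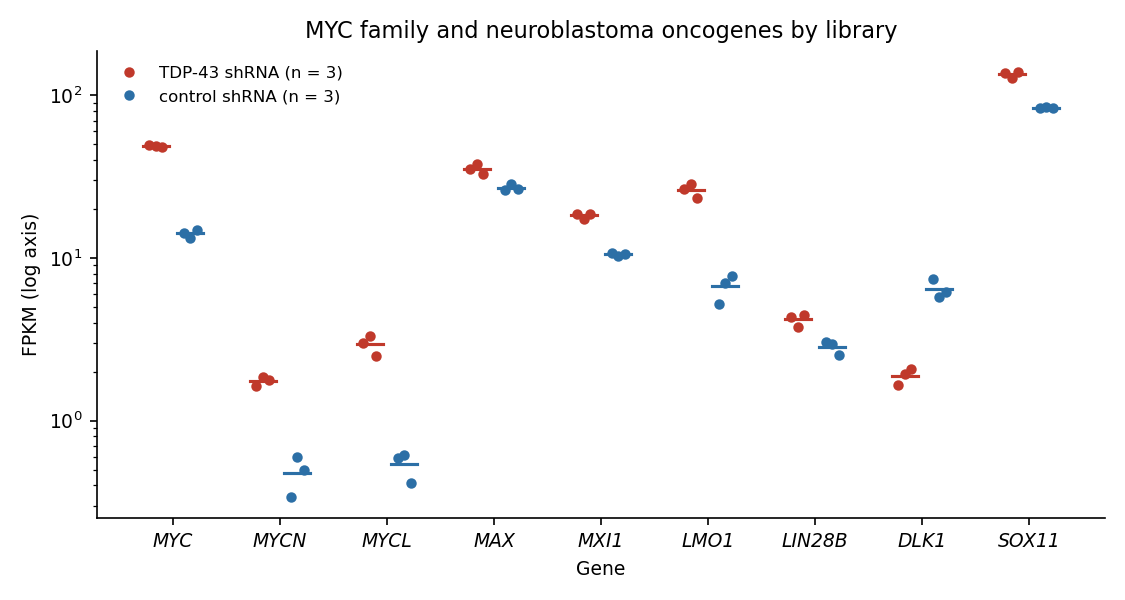
FPKM of the 9 genes on a log axis, with 1 point per library and a line at the mean of each group of 3, the TDP-43 shRNA left of the control shRNA. The groups lie apart for every gene, MYC being at 48.3 to 49.5 FPKM in the knockdown and 13.2 to 15.0 FPKM in the control, and DLK1 alone is lower in the knockdown.

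MYC, the broadly expressed member of the family (chromosome 8, 127735434 to 127741434, plus strand, GRCh38), was the most abundant of the 3 MYC genes in every library. It stood at 49.5, 49.1 and 48.3 FPKM in knockdown cells, against 14.3, 13.2 and 15.0 FPKM in control cells. The knockdown values lay within a narrow band well above the highest control value. MYC was 3.45 times as abundant in the knockdown, with a log2 fold change of 1.72 (standard error 0.0526, limma adjusted p = 1.68e-08). Its mean level ranked at the 92.2 percentile of tested genes in the knockdown and at the 61.5 percentile in the control.

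Values of the genes beside MYC were closer between the groups. PVT1, a long noncoding RNA gene that starts 53098 bases downstream of the end of MYC, stood at 8.87 ± 0.203 FPKM in the knockdown and 8.29 ± 0.589 FPKM in the control (SD, n = 3 each), and the groups overlapped. Within 500000 bases of MYC, PVT1 and TMEM75 were the 2 tested genes, and 0 of them were called, beside 66.3% of all tested genes. For MYCN the 2 tested genes at that distance, DDX1 and NBAS, which can be amplified together with MYCN in tumours, were not called either. DDX1 stood at 63.9 ± 3.55 FPKM in the knockdown and 67.9 ± 1.14 FPKM in the control. These neighbours were chosen by distance after the members' values were known.

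MYCN (chromosome 2, 15940564 to 15947007, plus strand) was the least abundant member in either group. It stood at 1.64, 1.86 and 1.78 FPKM in knockdown cells, against 0.341, 0.600 and 0.497 FPKM in control cells. The ratio of the means was 3.66 and the log2 fold change 0.90 (standard error 0.102, limma adjusted p = 6.85e-05). With a pseudocount of 0.1 in place of 1 the log2 fold change was 1.70. MYCNOS, the antisense gene that overlaps MYCN, was listed at 0 to 0.167 FPKM in the 6 libraries. The libraries were made with a strand-marking kit, but whether strand was used in counting is not given in the sources used here. Reads of this pair may therefore be mixed.

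MYCL (chromosome 1, 39895426 to 39902256, minus strand), first found amplified in small cell lung cancer, had the largest ratio of the 9. Its values were 3.00, 3.33 and 2.52 FPKM in knockdown cells, against 0.587, 0.613 and 0.414 FPKM in control cells. The ratio of the means was 5.48, and the log2 fold change was 1.36, or 2.26 with a pseudocount of 0.1 (standard error 0.108 and limma adjusted p = 7.18e-06 at a pseudocount of 1). Of 17 tested genes within 500000 bases 9 were higher and 5 lower, beside 30.5% and 35.9% of all tested genes. The nearest, TRIT1, a tRNA-modifying enzyme, stood at 9.70 ± 0.614 FPKM in the knockdown and 8.41 ± 0.376 FPKM in the control.

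Summed over the 3 genes, MYC family transcripts reached 54.2, 54.3 and 52.6 FPKM in knockdown cells, against 15.2, 14.5 and 15.9 FPKM in control cells. MYC made up 90.4% to 91.8% of that sum in the knockdown and 91.6% to 94.3% in the control. The log2 ratio of MYCN to MYC differed by -0.08 between the groups (exact two-sided permutation p = 0.8, n = 3 each). Its groups overlapped and the sign of the difference turned when control replicate 2 was left out, at 0.12. MYCL made up 5.53%, 6.14% and 4.79% of the sum in the knockdown libraries and 3.86%, 4.24% and 2.61% in the control libraries. These shares did not overlap (exact two-sided permutation p = 0.1, the smallest that 3 against 3 libraries allow).

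MAX, the obligate partner (chromosome 14, 65006174 to 65102695, minus strand), differed less. It stood at 35.4, 37.7 and 33.0 FPKM in knockdown cells, against 26.1, 28.5 and 26.5 FPKM in control cells. The groups lay apart by a small margin. The ratio of the means was 1.31 and the log2 fold change 0.37 (standard error 0.0602, limma adjusted p = 6.12e-04), and under equal-sum scaling it was -0.50. FNTB is a farnesyltransferase subunit gene that overlaps MAX on the other strand. It stood at 6.13 ± 0.544 FPKM in the knockdown and 5.40 ± 0.807 FPKM in the control and was not called. Its reads and those of MAX may be mixed, for the same reason as at MYCN. Of 10 tested genes within 500000 bases of MAX 0 were higher and 6 lower (all tested genes, 30.5% and 35.9%).

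MXI1, a MAX-binding repressor (chromosome 10, 110207605 to 110287365, plus strand), was also higher. Its values were 18.8, 17.4 and 18.7 FPKM in knockdown cells, against 10.7, 10.2 and 10.7 FPKM in control cells. The log2 fold change was 0.74 (standard error 0.0535, limma adjusted p = 3.85e-06), and under equal-sum scaling it was -0.10 and no longer passed. Within 500000 bases 2 of 6 tested genes were higher and 4 lower (all tested genes, 30.5% and 35.9%).

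A ratio within a library is not touched by a linear rescaling of that library. The summed MYC family stood at 1.53, 1.44 and 1.59 times the MAX level in the knockdown libraries and at 0.583, 0.507 and 0.599 times in the control libraries. The family thus exceeded MAX in each knockdown library and was below it in each control library. The difference of the log2 ratios was 1.43. MXI1 stood at 0.530, 0.461 and 0.567 times MAX in the knockdown and at 0.412, 0.358 and 0.402 times MAX in the control, a log2 difference of 0.40. Either difference gave an exact two-sided permutation p = 0.1, the smallest that 3 against 3 libraries allow, and p = 0.125 adjusted over the 5 ratios computed.

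**Figure D2:**
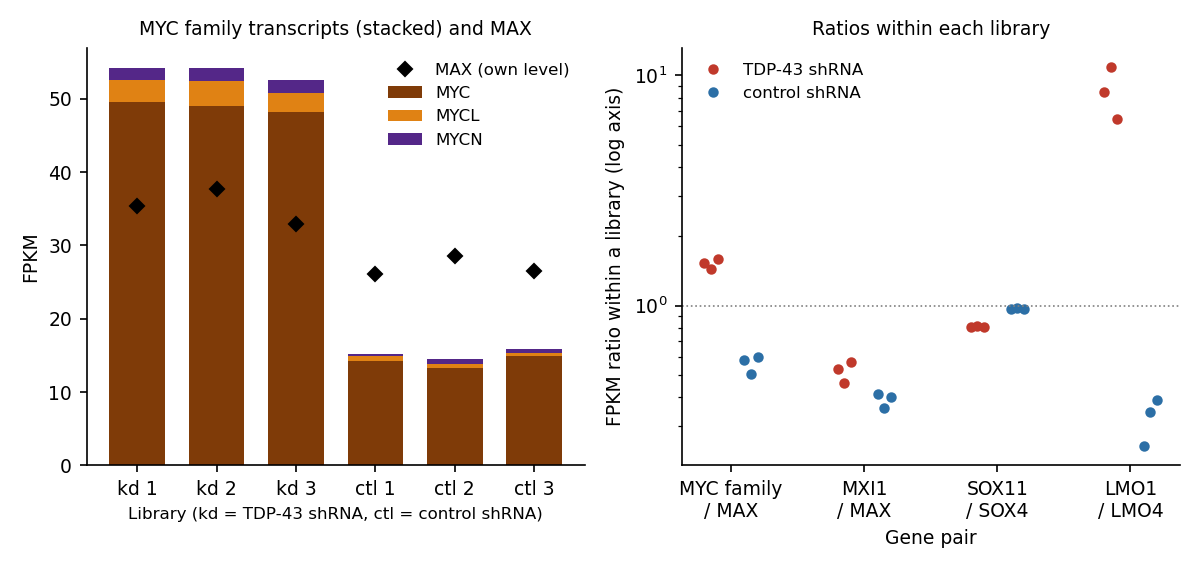
Left, FPKM of MYC, MYCL and MYCN stacked per library, with MAX as a diamond at its own level; right, FPKM ratios within each library on a log axis. The stack lies above the MAX diamond in the 3 knockdown libraries and below it in the 3 control libraries, and LMO1/LMO4 is 6.47 to 10.9 in the knockdown and 0.245 to 0.388 in the control.

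The other genes of the MAX and MLX network were taken as a list of 8, of which 7 were tested. In the knockdown 5 were higher and 1 lower (background 30.5% and 35.9% of tested genes). The count of higher genes was 3 when control replicate 2 or control replicate 3 was left out. MXD4, a MAX-binding repressor, differed most, with 16.8, 17.4 and 15.96 FPKM in knockdown cells, against 6.49, 6.15 and 7.20 FPKM in control cells. Its log2 fold change was 1.22 (limma adjusted p = 6.88e-07), and it alone of the 5 kept its sign under equal-sum scaling. The repressors MXD1, MNT and MGA had log2 fold changes of 0.40, 0.25 and 0.20, and MLXIP, a glucose-responsive partner of MLX, 0.15. MLX, which pairs with MLXIP and MLXIPL, stood at 12.1 ± 0.119 FPKM in the knockdown and 15.2 ± 0.681 FPKM in the control, a log2 fold change of -0.31. MXD3 did not pass, at 14.4 ± 2.26 FPKM in the knockdown and 12.7 ± 0.461 FPKM in the control. MLXIPL was listed at 0 to 0.0601 FPKM in the 6 libraries and was not tested.

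**Figure D3:**
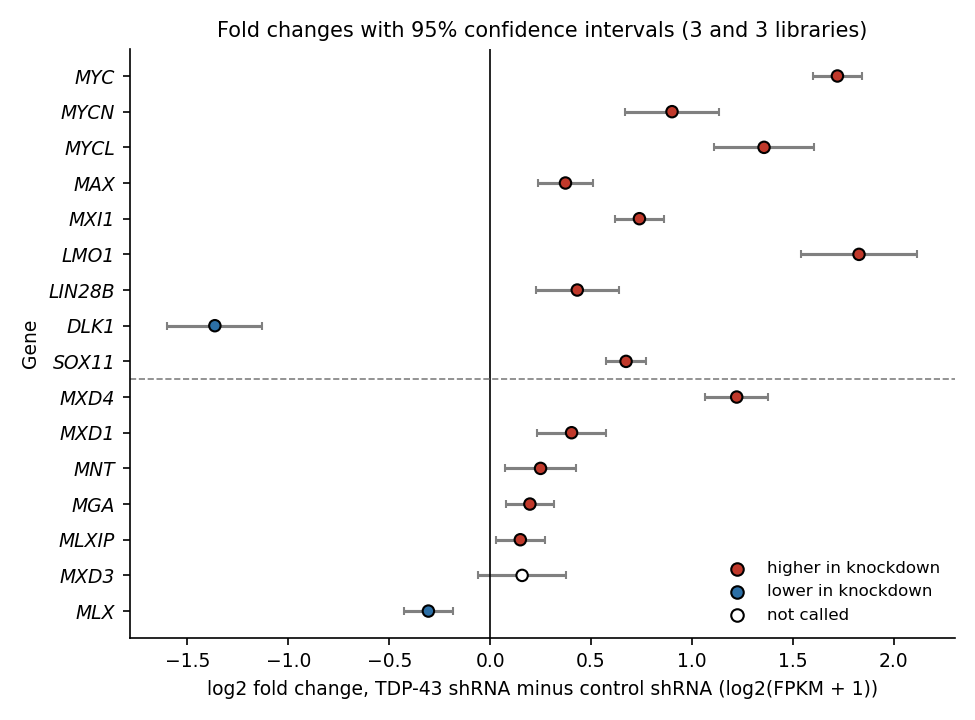
Log2 fold changes of the 9 genes (above the dashed line) and of the 7 tested network partners (below it), with 95% confidence intervals from limma over 3 and 3 libraries. At a pseudocount of 1, MYC and LMO1 lie furthest right at 1.72 and 1.83, and DLK1 furthest left at -1.36; under equal-sum scaling MAX, MXI1, LIN28B, SOX11, MXD1, MNT, MGA, MLXIP and the uncalled MXD3 turn negative.

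Genes known as direct MYC targets in other cells, 40 of them, moved in both directions. In the knockdown 14 were higher, 10 were lower and 16 did not pass, a share of 35% higher and 25% lower against 30.5% and 35.9% of all tested genes. The median log2 fold change was 0.04 and that of all tested genes -0.02. The counts moved with the scaling, with 22 higher and 6 lower under quantile normalization, and 0 higher and 40 lower under equal-sum scaling, where the median of the list lay 0.02 below that of all genes. RCL1, FBL and POLR1B, which act in ribosomal RNA processing, modification and transcription, rose by 0.63, 0.50 and 0.49, all below 0 under equal-sum scaling. LDHA, the lactate dehydrogenase of glycolysis, stood at 144.3 ± 3.54 FPKM in the knockdown and 295.5 ± 4.92 FPKM in the control, a log2 fold change of -1.03. HSPE1, a mitochondrial chaperonin, and EIF4E, the cap-binding translation factor, had log2 fold changes of -0.63 and -0.57. ODC1, the polyamine synthesis enzyme often used as a MYC readout, was among those lower, at 70.1 ± 2.32 FPKM in the knockdown and 99.7 ± 2.15 FPKM in the control. It was picked out after its values were seen, as was NCL, the nucleolar protein nucleolin, which stood at 251.2 ± 6.20 and 249.7 ± 2.25 FPKM and did not pass.

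Of 9 tested genes that MYC is known to repress in other cells, 2 were higher and 5 lower (22.2% and 55.6%, against 30.5% and 35.9% of all tested genes), with a median of -0.49. TGM2, a transglutaminase, stood at 0.930, 1.78 and 1.35 FPKM in knockdown cells, against 83.4, 83.3 and 85.7 FPKM in control cells. THBS1, a matrix glycoprotein, and CDKN1A, the p21 cell cycle inhibitor, had log2 fold changes of -3.01 and -1.70. TGM2 and THBS1 are also typical of mesenchymal cells, and the summed mesenchymal markers given above were lower in the same libraries. Whether these differences are linked to each other or to MYC was not tested. NDRG2 rose by 0.42 and was negative under equal-sum scaling. CDKN2B, a cell cycle inhibitor below the test's minimum, was at 0.0537 ± 0.0355 FPKM in the knockdown and 1.32 ± 0.123 FPKM in the control. CEBPA, the other listed gene below that minimum, went the other way. It was at 1.08 ± 0.229 FPKM in the knockdown and 0.0970 ± 0.0521 FPKM in the control.

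MYC proteins are short-lived, and 12 genes of their turnover were tested. In the knockdown 3 were higher and 4 lower (25% and 33.3%), shares near the 30.5% and 35.9% of all tested genes, and the median was 0.02. AURKA, a mitotic kinase that shields MYCN protein from degradation, stood at 10.9 ± 0.870 FPKM in the knockdown and 23.6 ± 0.175 FPKM in the control, and PLK1, another mitotic kinase, had a log2 fold change of -0.83. TRIM32, a ubiquitin ligase, had one of -0.36. USP11, FBXW7 and HUWE1, a deubiquitinase and 2 ubiquitin ligase components, rose by 0.27, 0.25 and 0.11, all negative under equal-sum scaling. The count of higher genes was 1 when knockdown replicate 1, control replicate 1 or control replicate 3 was left out. RNA levels do not show protein stability.

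LMO1 (chromosome 11, 8224304 to 8268716, minus strand) is a LIM-only protein that bridges transcription factors on DNA without binding it. It stood at 26.4, 28.5 and 23.3 FPKM in knockdown cells, against 5.22, 7.03 and 7.80 FPKM in control cells. The log2 fold change was 1.83 (standard error 0.126, limma adjusted p = 2.89e-06), and the ratio of the means was 3.90. It was the highest of the 9 at a pseudocount of 1, whereas with 0.1 LMO1 was at 1.96 and MYCL at 2.26. The neighbouring genes RIC3, an acetylcholine receptor chaperone, and TUB stood at 5.81 ± 0.444 and 24.1 ± 0.106 FPKM in the knockdown, against 1.81 ± 0.0327 and 10.6 ± 0.138 FPKM in the control. Of 7 tested genes within 500000 bases of LMO1, 4 were higher and 1 lower, against 30.5% and 35.9% of all tested genes.

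The LMO paralogues differed in direction, LMO3 being higher like LMO1 and LMO4 lower. LMO4, widely expressed and active in neural crest, stood at 3.13, 2.62 and 3.60 FPKM in knockdown cells, against 21.3, 20.3 and 20.1 FPKM in control cells, a log2 fold change of -2.40 (limma adjusted p = 5.63e-08). LMO3 stood at 12.4, 10.3 and 13.6 FPKM in knockdown cells, against 2.38, 2.64 and 2.85 FPKM in control cells. Within libraries LMO1 was 6.47 to 10.9 times LMO4 in the knockdown and 0.245 to 0.388 times LMO4 in the control, so the more abundant of the pair differed between the groups. The log2 ratio differed by 4.66 (exact two-sided permutation p = 0.1, the smallest possible, and 0.125 adjusted over 5 ratios). LMO2 averaged 0.205 ± 0.0387 FPKM in the knockdown and 0.416 ± 0.297 FPKM in the control and was not tested.

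Among LMO partners the adaptor LDB1 stood at 57.6 ± 5.36 FPKM in the knockdown and 35.2 ± 1.14 FPKM in the control, and its relative LDB2 at 3.72 ± 0.344 and 7.67 ± 0.301 FPKM. Over the list of LMO relatives and partners 4 of 8 tested genes were higher and 3 lower (50% and 37.5%, against 30.5% and 35.9% of all tested genes), with a median of 0.21. TCF4, an E protein, was lower by log2 fold change (-0.43). LDB1 turned negative under equal-sum scaling. TAL1, a partner of LMO proteins in blood cells, was listed at 0 in all 6 libraries.

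LIN28B (chromosome 6, 104936616 to 105083332, plus strand) stood at 4.37, 3.74 and 4.48 FPKM in knockdown cells, against 3.05, 2.97 and 2.54 FPKM in control cells. The groups lay apart, though by less than those of LMO1. The log2 fold change was 0.43 (standard error 0.0897, limma adjusted p = 0.00264), and under equal-sum scaling it was -0.27. Its paralogue LIN28A averaged 0.286 ± 0.0901 FPKM in the knockdown and 0.237 ± 0.0141 FPKM in the control, so LIN28B was the more abundant of the pair in every library. Of 5 tested genes within 500000 bases of LIN28B 0 were higher and 2 lower (all tested genes, 30.5% and 35.9%).

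The let-7 microRNAs, which LIN28B holds back, carry no poly(A) tail and are not analysed here. Their sequences are shown because their seed defines the target group described next. The 9 mature let-7 family members matched in RefSeq (GRCh38.p14) share 1 seed (bases 2 to 8), in capitals.
let-7a: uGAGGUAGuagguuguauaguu
let-7i: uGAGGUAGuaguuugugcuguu
miR-98: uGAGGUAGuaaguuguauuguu
The reverse complement CTACCTC was searched on the transcript strand of the 3′ untranslated regions (UTRs) of GENCODE v29 protein-coding transcripts, taking for each gene the transcript with most matches. Of the 9 members LIN28B alone held CTACCTC, with 4 matches, and 23.7% of 1204 genes of like UTR length held at least 1. Other forms of seed match were not searched, so members without CTACCTC may hold those. The 4 matches of LIN28B and the 4 of HMGA2, a chromatin protein and classic let-7 target, are shown 5′ to 3′ with the match in capitals.
LIN28B 1: acccggttgcaaagtCTACCTCa
LIN28B 2: tactgatgatagtaaCTACCTCt
LIN28B 3: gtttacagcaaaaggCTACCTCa
LIN28B 4: aaatgatggtgttgaCTACCTCt
HMGA2 1: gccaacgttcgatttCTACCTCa
HMGA2 2: ccccactactcaataCTACCTCt
HMGA2 3: ttgacttgcaaagacCTACCTCc
HMGA2 4: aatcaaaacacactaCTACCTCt
Over all tested genes with a UTR 12% held the match. A UG repeat of the kind TDP-43 binds was searched in the same 3′ UTRs as 5 consecutive TG pairs on the transcript strand. It was found in the 3′ UTRs of 0 of the 9 members and of 8.24% of all 11755 genes. Introns and other parts of the genes were not searched for it. A match is a run of letters and not a measured site.

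Of 10 tested genes of the LIN28 and let-7 axis 2 were higher and 3 lower, with a median of 0.00. These shares, 20% and 30%, lie below those of all tested genes (30.5% and 35.9%). HMGA2 was listed at 0 in all 3 libraries of knockdown cells, against 6.61, 6.95 and 8.11 FPKM in control cells. IGF2BP2, an RNA-binding protein and let-7 target, was listed at 0.0276, 0 and 0.0399 FPKM in knockdown cells, against 8.35, 8.76 and 8.61 FPKM in control cells. An exact 0 in such a table can be a failed estimate. HMGA2 and IGF2BP2 averaged under 1 FPKM in the knockdown, so they entered the test through the control libraries. IGF2BP3 stood at 27.5 ± 1.57 FPKM in the knockdown and 40.8 ± 0.383 FPKM in the control. DIS3L2, the exonuclease that degrades let-7 precursors tagged through LIN28, and ZCCHC11, the uridylyltransferase that tags them, rose by 0.63 and 0.41, both negative under equal-sum scaling.

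DLK1 (chromosome 14, 100725705 to 100738224, plus strand), a surface protein of neural crest and chromaffin precursors, was the one member lower in the knockdown. It stood at 1.66, 1.92 and 2.08 FPKM in knockdown cells, against 7.48, 5.74 and 6.16 FPKM in control cells. The lowest control value was above the highest knockdown value by a wide margin. The log2 fold change was -1.36 (standard error 0.103, limma adjusted p = 5.10e-06), and the control level was 3.42 times that of the knockdown.

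RTL1, a retrotransposon-derived and paternally expressed gene of the same imprinted domain, was lower as well. Its level stood at 1.13, 1.82 and 1.31 FPKM in knockdown cells, against 17.8, 17.8 and 18.3 FPKM in control cells, a log2 fold change of -2.98 (limma adjusted p = 3.41e-08). RTL1 lies on the minus strand and overlaps MEG8 and microRNA genes such as MIR127 on the plus strand. MEG8 was listed at 0 to 0.404 FPKM in the 6 libraries. With strand use in counting unknown, reads from the plus strand may be counted in RTL1. DIO3, a thyroid hormone deiodinase below the test's minimum, was listed at 0.139, 0 and 0.103 FPKM in knockdown cells, against 1.16, 0.975 and 1.15 FPKM in control cells. MEG3, the maternally expressed noncoding RNA next to DLK1, was 0 in each library of knockdown cells, against 0 to 0.0298 FPKM in control cells, so no ratio to DLK1 could be formed. BEGAIN, a neighbour on the other side, was lower with a log2 fold change of -0.58, and WDR25 did not pass. In all, 0 of 3 tested genes of the list were higher and 2 lower (all tested genes, 30.5% and 35.9%), the median being -0.58. By distance alone, 1 of 6 tested genes within 500000 bases of DLK1 was higher and 4 were lower. DLK2, the paralogue, averaged 0.959 ± 0.165 FPKM in the knockdown and 0.656 ± 0.173 FPKM in the control and was not tested.

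SOX11 (chromosome 2, 5692667 to 5701385, plus strand) was the most abundant member in either group. Its values were 138.2, 127.4 and 139.4 FPKM in knockdown cells, against 84.2, 84.3 and 84.0 FPKM in control cells. The log2 fold change was 0.67 (standard error 0.0431, limma adjusted p = 1.76e-06), and under equal-sum scaling it was -0.22. The one tested gene within 500000 bases, the noncoding LINC01105, stood at 4.07 ± 0.294 FPKM in the knockdown and 0.554 ± 0.0131 FPKM in the control.

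The other SOXC genes were higher too. SOX4, which shares many sites with SOX11, stood at 171.2, 156.9 and 172.02 FPKM in knockdown cells, against 86.9, 86.03 and 86.9 FPKM in control cells, and SOX12 at 23.4 ± 1.22 and 14.3 ± 0.714 FPKM. Both rose, by 0.94 and 0.68, and under equal-sum scaling SOX4 no longer passed and SOX12 turned negative. SOX11 was 0.807 to 0.812 times SOX4 in the knockdown and 0.968 to 0.980 times SOX4 in the control, a log2 difference of -0.26 (exact two-sided permutation p = 0.1, the smallest possible, and 0.125 adjusted over 5 ratios). The listed targets of SOXC proteins were split. DCX, a microtubule protein of young neurons, rose by 1.99, and STMN1, named after its values were seen, by 0.14. In contrast TUBB3, a neuronal tubulin, TEAD2, a transcription factor, and STMN2, a growth cone protein, had log2 fold changes of -0.46, -0.80 and -0.43. Over the whole list, which includes SOX4 and SOX12 themselves, 4 of 7 were higher and 3 lower, with a median of 0.14. These shares were 57.1% and 42.9%, against 30.5% and 35.9% of all tested genes.

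**Figure D4:**
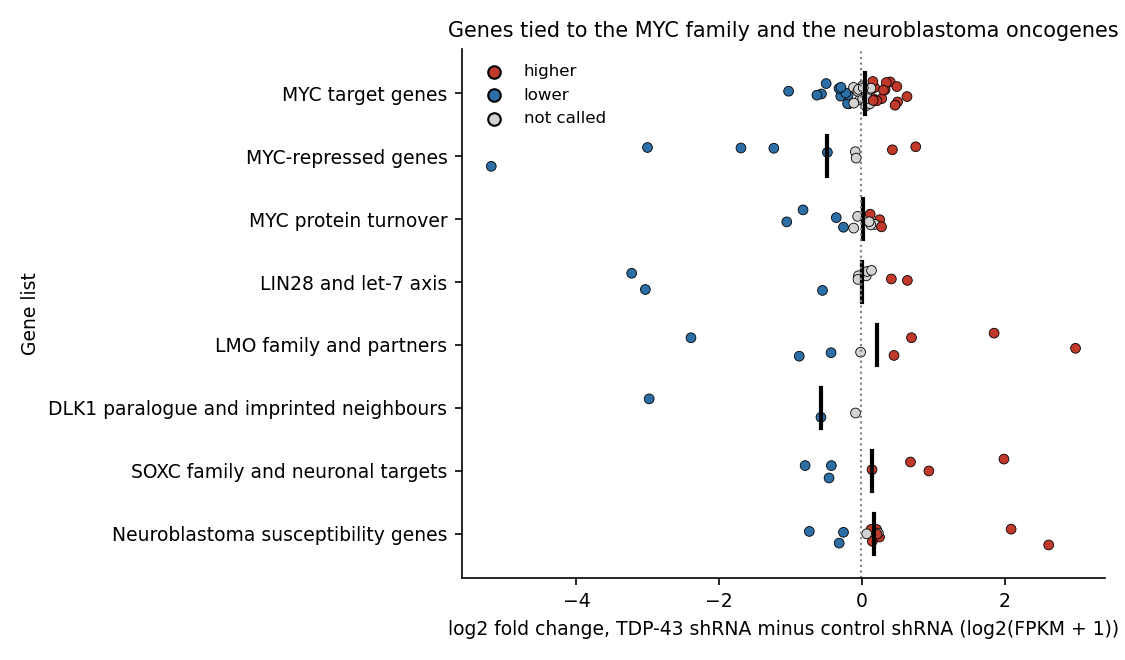
Log2 fold changes of the tested genes of 8 lists, with 1 point per gene, a bar at the median of each list and a dotted line at the median of all tested genes. MYC targets lie around the dotted line (median 0.04), and TGM2 is the lowest point among genes repressed by MYC; under equal-sum scaling the medians of the 6 lists other than the MYC-repressed and DLK1 ones fall below 0.

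Of 12 neuroblastoma susceptibility genes tested 7 were higher and 3 lower (58.3% and 25%, against 30.5% and 35.9% of all tested genes), with a median of 0.17. ALK, the receptor kinase mutated in familial neuroblastoma, stood at 49.0, 50.1 and 50.4 FPKM in knockdown cells, against 7.05, 7.92 and 6.99 FPKM in control cells. The chromatin remodeller gene ATRX rose by 0.24 but was below 0 under equal-sum scaling. BARD1, the partner of BRCA1, had a log2 fold change of -0.74, PTPN11, a phosphatase of RAS signalling, -0.32, and HSD17B12, a steroid and fatty acid enzyme, -0.26. PTPN11 and HSD17B12 no longer passed with quantile normalization. The count of higher genes was 4 of 12, near the share of all tested genes, when knockdown replicate 1 or control replicate 1 was left out.

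Ranked by mean FPKM, the order in the knockdown was SOX11, MYC, MAX, LMO1, MXI1, LIN28B, MYCL, DLK1 and MYCN, and DLK1 and MYCN overlapped. In the control it was SOX11, MAX, MYC, MXI1, LMO1, DLK1, LIN28B, MYCL and MYCN, with overlaps between LMO1 and DLK1 and between MYCL and MYCN. The other neighbours in either order did not overlap. DLK1 stood 2 places lower in the knockdown, and no other member differed by more than 1 place.

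The tested genes whose log2(FPKM + 1) values, after subtraction of the gene mean, lay closest to a member over the 6 libraries were found by Euclidean distance. For MYC they were PCDH1 and PHF21B (distances 0.10 and 0.11), for MYCN SLC8A2 and IDUA (0.12 each), and for LMO1 DOC2B and PHACTR1 (0.26 and 0.28). For DLK1 they were DGKA and PLP2 (0.19 and 0.22), and for SOX11 LINC00342 and PCLO (0.04 each). The distance takes in the difference between the groups as well as the spread within them.

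**Figure D5:**
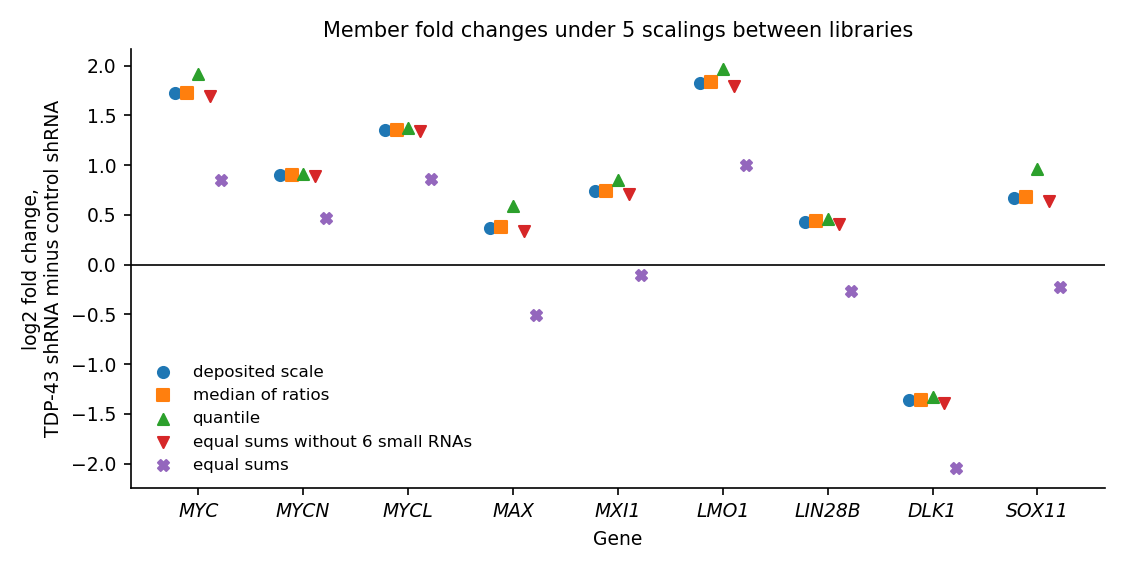
Log2 fold change of each member on the deposited scale and under 4 rescalings between libraries. MYC, MYCN, MYCL and LMO1 stay above 0 and DLK1 below 0 under all 5, while MAX, MXI1, LIN28B and SOX11 fall below 0 under equal-sum scaling.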

How the data were processed

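Per the labels' protocols, libraries were made from poly(A) selected SH-SY5Y RNA with a strand-marking kit. The authors deposited FPKM per gene for 6 libraries as separate columns, assigned to groups by the sample titles. The submitters' processing notes name Cuffdiff 2.2.1, TopHat2 2.1.0, SAMtools and the build hg38, with no role, setting or annotation given. FPKM holds no read counts, so depth was compared only through the steps between values under 0.3 FPKM. Values were taken as log2(FPKM + 1). Genes averaging at least 1 FPKM were tested with limma 3.58.1 (R 4.3.3, trend on mean level) on all 6 libraries, after a check on simulated data, and called at an adjusted p under 0.05. A tested gene averaging under 1 FPKM in 1 group entered the test through the other group. Ratios within a library used a pseudocount of 0.1 on the log2 scale and exact permutation tests. The members and the 12 gene lists were chosen with earlier results of these data known. Named genes were the members, their paralogues and network partners, and up to 3 called genes per list and direction with the largest fold change. LMO2, DLK2, CDKN2B, CEBPA, DIO3, WDR25, ODC1, NCL, STMN1 and genes near a member were named outside this rule with their values known. Some genes that the rule picks are not reported here. Gene positions (GENCODE v29, GRCh38) count from 1. Upstream sequences and microRNAs are from RefSeq. Python 3.11.15, numpy 2.4.6, pandas 2.3.3 and matplotlib 3.10.9 were used. Alternatives covered pseudocounts, filters, scalings, limma settings, the replicate block and leaving out each library.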

Additional observations from a re-analysis of the deposited data

How the results depend on the processing

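MYC, MYCN, MYCL, LMO1 and DLK1 kept their direction and their call under each alternative in which they could be tested. Under equal-sum scaling the log2 fold changes of MAX, MXI1, LIN28B and SOX11 were -0.50, -0.10, -0.27 and -0.22, so 0.32, 0.71, 0.55 and 0.60 higher than the all-gene median there, and 522 genes were called higher and 11689 lower. These 4 kept direction and call under the other alternatives in which they were tested. At a minimum mean of 5 FPKM MYCN, MYCL, LIN28B and DLK1 were not tested. The log2 difference of MYCN to MYC was 0.10 with a pseudocount of 0.01, and -0.27 to 0.12 over the fits that left out a library, so its sign is not settled. Leaving out each library gave 7992 to 9140 called genes, against 8909.

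Same-numbered libraries did not deviate together, with correlations of -0.02, -0.18 and -0.09. The fit with the replicate block gave 8561 calls and changed no call of a member, MYC staying at 1.72. No ratio of DLK1 to MEG3 was run, since MEG3 was listed at 0 in 4 of 6 libraries. Of 24 counts over gene lists, 18 moved by over 1.5 times under equal-sum scaling, 6 with quantile normalization and at most 2 under any other alternative. The higher count of the MYC turnover list was 7 with quantile normalization. The higher count of the network partners was 3 when control replicate 2 or 3 was left out. The lower count of the LIN28 list was 1 without genes listed at 0. Low values limit MYCN, MYCL and DLK1 most, where a pseudocount of 0.1 gave 1.70, 2.26 and -1.72.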
